A study of Mus musculus with 4 samples.

Results

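The 7 genes Cd74, H2-Aa, H2-Ab1, H2-Eb1, H2-DMa, H2-DMb1 and Ciita, of 31053 genes in the matrices, were followed in epithelial cells of the adult mouse prostate. They were chosen by name, as the classical MHC class II genes with their chaperone, their peptide editor and their transcriptional master regulator. Single-cell RNA-seq was available from 3 runs of prostates from P2-Runx1:RFP mice on an outbred ICR (CD-1) background, over 8 weeks old, in which red fluorescent protein (RFP) reports the proximal P2 promoter of Runx1. Intact mice were measured in all 3 runs. Mice castrated more than 4 weeks earlier, of the same genotype, were measured in runs 1 and 2. Prostates were dissected by lobe, the anterior prostate (AP), the dorsolateral prostate (DLP) and the ventral prostate (VP), and live EPCAM+ cells were sorted as RFP+ or RFP-. Each lobe and RFP fraction carried its own lipid-anchored barcode. The mice of a run were pooled, so the run is the replicate. The barcode of intact DLP RFP+ cells failed in runs 1 and 2, and the castrated lobes of run 1 were mixed. Of 4691 cells with 1 barcode, 4045 were epithelial by the rule used here (an Epcam UMI, no Ptprc UMI, and at most 1 of 12 other immune genes), 703 in run 1, 1737 in run 2 and 1605 in run 3. Of these, 3207 came from intact and 838 from castrated mice. The reference was 245 cells with a Ptprc UMI (the gene of CD45, carried by leukocytes) and no Epcam UMI, 34, 209 and 2 in the 3 runs.

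MHC class II molecules are pairs of an alpha and a beta chain that carry peptides to the cell surface for CD4+ T cells. The chains are assembled on the invariant chain, the product of Cd74, which also blocks the groove until proteases such as cathepsins S and L and legumain remove it, and H2-DM then exchanges its last fragment for peptide. Ciita is the coactivator on which transcription of the class II chains largely depends. It binds no DNA itself and acts through the RFX, CREB and NF-Y complexes on the X and Y boxes of the promoters. Professional antigen-presenting cells express the set throughout, and many epithelia can be brought to express it by interferon gamma, whose receptor signals through JAK1 and JAK2.

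H2-Aa, H2-Ab1, H2-Eb1, H2-DMa and H2-DMb1 lie on chromosome 17 of GRCm38 (GENCODE vM21 annotation), between 34119541 (the start of H2-DMa) and 34316674 (the end of H2-Eb1). Ciita lies on chromosome 16 at 10480059-10528418. RefSeq promoter sequences (GRCm38.p6), reaching from 250 bases before to 50 bases after the start, were matched for 4 of the 7 members. Shown are 3 of them, an alpha chain, a beta chain and an H2-DM subunit, searched for short cores of the boxes through which Ciita acts. Capitals mark matches to the Y box core GATTGG, the X box core AGCAAC and the X2 core TGACGT, searched on both strands.
H2-Aa (chr17:34287774-34288073, minus strand): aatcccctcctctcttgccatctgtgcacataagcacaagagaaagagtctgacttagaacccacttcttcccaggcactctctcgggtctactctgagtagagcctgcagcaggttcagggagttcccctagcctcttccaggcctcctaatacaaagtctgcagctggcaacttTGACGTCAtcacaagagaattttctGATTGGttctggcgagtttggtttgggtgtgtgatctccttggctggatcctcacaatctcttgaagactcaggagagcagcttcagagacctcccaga
H2-Eb1 (chr17:34305617-34305916, plus strand): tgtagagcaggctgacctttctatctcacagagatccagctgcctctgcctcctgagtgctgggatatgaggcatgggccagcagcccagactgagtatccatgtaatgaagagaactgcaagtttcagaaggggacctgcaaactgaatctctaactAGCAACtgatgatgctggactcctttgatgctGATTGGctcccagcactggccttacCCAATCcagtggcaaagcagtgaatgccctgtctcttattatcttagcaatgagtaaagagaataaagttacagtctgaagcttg
H2-DMb1 (chr17:34152941-34153240, plus strand): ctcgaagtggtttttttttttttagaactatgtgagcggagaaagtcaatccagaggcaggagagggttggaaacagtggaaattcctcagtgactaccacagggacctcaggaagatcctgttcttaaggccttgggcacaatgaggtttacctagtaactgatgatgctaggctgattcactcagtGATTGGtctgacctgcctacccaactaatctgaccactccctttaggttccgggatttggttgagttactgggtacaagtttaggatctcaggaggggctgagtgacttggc
The Y box core lay 49 bases before the start of H2-Aa, 60 bases before that of H2-Eb1 and 62 bases before that of H2-DMb1, counted to its first base. H2-Eb1 held a second copy, on the opposite strand, at 35 bases. The X2 core of H2-Aa is palindromic, so its matches on both strands overlap. Of the matched members only H2-Eb1 held the X box core and only H2-Aa the X2 core. H2-DMb1 held the Y box core alone, as did H2-DMa, which is not shown. The 3 cores occurred in 16.11%, 14.79% and 7.513% of 32851 promoters of the same length, and a match says only that these letters are in the window.

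Epithelial cells were split by the summed UMIs of Krt5, Krt14, Krt15 and Trp63 at 8.64 per 10000 UMIs of the cell, which gave 2302 keratin-high and 1743 keratin-low cells. The keratin-high class is not simply basal. Without Krt15, 313 of its cells left it, and 233 of those had at least 5 UMIs of Psca and Krt4, which mark proximal luminal cells. No more than 158 cells (3.906%) lay within 1 log2 unit of the boundary. Epcam was between 454.5 and 2172 UMIs per 1000000 UMIs (CPM) in the intact classes. The summed level of the 12 immune genes was 0 to 18.41 CPM in the keratin-high populations and 0.5714 to 4429 CPM in the keratin-low populations, where Cd52 in DLP cells made up the top of the range. Fibroblast and endothelial lists reached no more than 81.77 and 54.8 CPM. The mesonephric list (Svs2 and Pax2) reached 9634 CPM in intact keratin-low populations, in DLP RFP- cells of run 1, and 269.3 CPM in castrated ones, while in intact keratin-high populations it stayed at or below 2.149 CPM. The part of these cells in the results was not tested. A further 52 Epcam-positive Ptprc-negative cells had 2 or more of the 12 immune genes and were set apart. They held 1879 Cd74 UMIs, against 920 in the 4045 epithelial cells, so several results that depend on this choice are given with and without them.

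All 7 genes were far higher in Ptprc-positive cells than in epithelium. Cd74 was at 22330 CPM in run 1 and 22030 CPM in run 2 in the Ptprc-positive cells of intact mice. In intact epithelium it was represented by 182, 184 and 66 UMIs in the 3 runs. H2-Aa, the alpha chain of I-A, was at 4642 and 4804 CPM in Ptprc-positive cells, and at 1.651, 2.351 and 0.1914 CPM in epithelium. H2-Ab1, its beta chain, was at 8155 and 9486 CPM against 3.784, 4.658 and 0.5359 CPM. In runs 1 and 2 these levels do not overlap between the classes for any member. The share of all genes without overlap is not given here, so this describes the members alone. The 2 Ptprc-positive cells of run 3, which entered no test, held no UMI of H2-Eb1 or Ciita. In edgeR's quasi-likelihood test on sums per run (2 Ptprc-positive against 3 epithelial sums), all 7 members passed at an adjusted p of 0.05, where 30.9% of the 13350 genes tested were called and 14.1% were called as higher in Ptprc-positive cells. Differences between Ptprc-positive and epithelial cells are given as log2 fold changes ± SE. Cd74 differed by 11.31 ± 0.75 (edgeR adjusted p = 5.385e-05), H2-Aa by 11.48 ± 0.99 (edgeR adjusted p = 0.0001761) and H2-Ab1 by 11.30 ± 0.98 (edgeR adjusted p = 0.0001833). H2-Eb1, the beta chain of I-E, was represented by 0, 6 and 6 epithelial UMIs, and Ciita by 0, 1 and 2, so that their fitted differences, 10.14 ± 0.62 and 9.38 ± 0.56, depend on the prior count. For the H2-DM subunits the difference was smaller, 8.22 ± 0.39 for H2-DMa (edgeR adjusted p = 2.138e-05) and 6.80 ± 0.30 for H2-DMb1 (edgeR adjusted p = 2.074e-05). H2-DMb1 has a near-identical neighbour, H2-DMb2, so its counts are uncertain where reads could belong to either copy. The mice are not of the C57BL/6J strain of the reference genome and the H2 genes are polymorphic, and the effect of this on alignment was not tested.

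In intact epithelium Cd74 varied as widely between runs as between populations. AP RFP+ keratin-high cells were at 25.11, 7.226 and 0.6817 CPM in runs 1, 2 and 3. In AP RFP+ keratin-low cells the values were 7.28, 14.58 and 0 CPM, where the absence of UMIs in run 3 allows up to 2.941 CPM. Run 3 was low nearly throughout, with 6 of its 12 populations at 0 UMIs. AP RFP- cells were at 7.15, 3.269 and 0 CPM when keratin-high, and at 5.538, 7.997 and 0 CPM when keratin-low. VP RFP+ cells were at 2.149, 3.902 and 0 CPM when keratin-high, and at 0.778, 7.639 and 0 CPM when keratin-low. The ranges of these populations over the runs overlapped. Within each run AP RFP+ keratin-high cells were above AP RFP- and VP RFP+ keratin-high cells, in 3 of 3 runs (on 2 UMIs against 0 in run 3), a difference that was not tested for Cd74. Most intact Ptprc-positive cells also carried the AP RFP+ barcode, 29 of 34 in run 1 and 165 of 175 in run 2. The part of this in the AP RFP+ values was not tested. Other keratin-high populations were above AP RFP+ keratin-high cells in runs 2 and 3. DLP RFP- keratin-high cells were at 15.43 CPM in run 2, on 8 UMIs. DLP RFP+ keratin-high cells were at 13.59 CPM in run 3, on 44 UMIs with 35 in 1 cell. Single cells set several of the higher values. In AP RFP+ keratin-high cells of run 1, 1 cell held 68 Cd74 UMIs and another 27. Cells were also thinned to 5000 UMIs each, which left out shallower cells, 41, 81 and 110 of the intact epithelial cells and 8 of 34 and 67 of 175 Ptprc-positive cells of runs 1 and 2. Of the cells kept, 3.416%, 4.306% and 0.5351% of intact epithelium had a Cd74 UMI in the 3 runs (7.153%, 17.23% and 0.7477% before thinning), against all 26 Ptprc-positive cells kept in run 1 and 99.07% of the 108 kept in run 2 (97.06% and 83.43% of all cells before thinning).

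**Figure D1:**
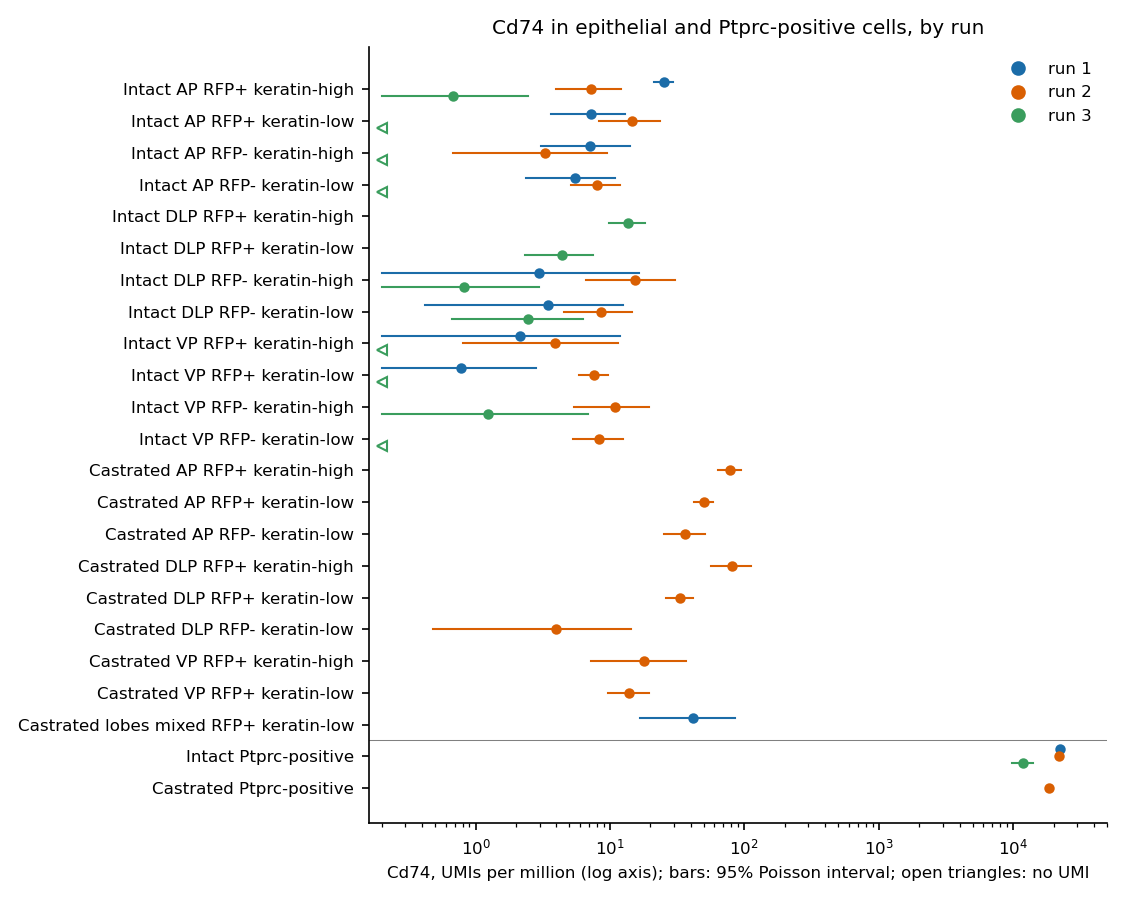
Cd74 in CPM (log axis) in each population with at least 10 cells and in Ptprc-positive cells, where points are runs, bars are 95% Poisson intervals covering counting error only, and open triangles are populations without a UMI. Intact epithelial populations lay at or below 25.11 CPM, castrated populations of run 2 between 3.971 and 81.21 CPM, and Ptprc-positive cells above 10000 CPM.

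The I-A chains were at low levels in the same populations. H2-Aa was at 3.223, 2.581 and 0 CPM in AP RFP+ keratin-high cells, and at 1.167, 2.394 and 0 CPM in VP RFP+ keratin-low cells. H2-Ab1 was at 6.107, 2.581 and 0.6817 CPM in the former, and at 1.167, 5.131 and 0 CPM in the latter. Both chains were lowest in run 3 in these populations, as Cd74 was. H2-DMb1 varied less between runs, with 83, 107 and 99 UMIs in intact epithelium of the 3 runs (5.711, 4.747 and 3.79 CPM). H2-DMa had 44, 73 and 50 UMIs (3.028, 3.239 and 1.914 CPM). VP RFP+ keratin-low cells of run 3 held 32 UMIs of H2-DMb1 and none of Cd74.

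The relation of the genes to each other differed between the classes of cells. Per 100 Cd74 UMIs, Ptprc-positive cells held 20.79, 21.81 and 20.94 UMIs of H2-Aa (run 1, run 2, and castrated mice of run 2) and 36.52, 43.07 and 42.39 of H2-Ab1. Intact epithelium held 13.19, 28.8 and 7.576 of H2-Aa and 30.22, 57.07 and 21.21 of H2-Ab1, on both sides of the Ptprc-positive values. H2-DMb1 stood apart, with 3.229, 2.457 and 2.244 UMIs per 100 Cd74 UMIs in Ptprc-positive cells and 45.6, 58.15 and 150 in intact epithelium. H2-DMa was at 5.239, 3.638 and 2.743 in Ptprc-positive cells and at 24.18, 39.67 and 75.76 in intact epithelium. Castrated epithelium of run 2 was at 12.53 for H2-DMb1 and 10.77 for H2-DMa. The set-apart cells of intact mice of run 2, not counted in these values, were at 3.364 and 1.988. H2-DMa and H2-DMb1 of epithelium relative to Cd74 were above the Ptprc-positive cells in each run with at least 10 of both, while H2-Aa and H2-Ab1 were below them in run 1 and above them in run 2.

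**Figure D2:**
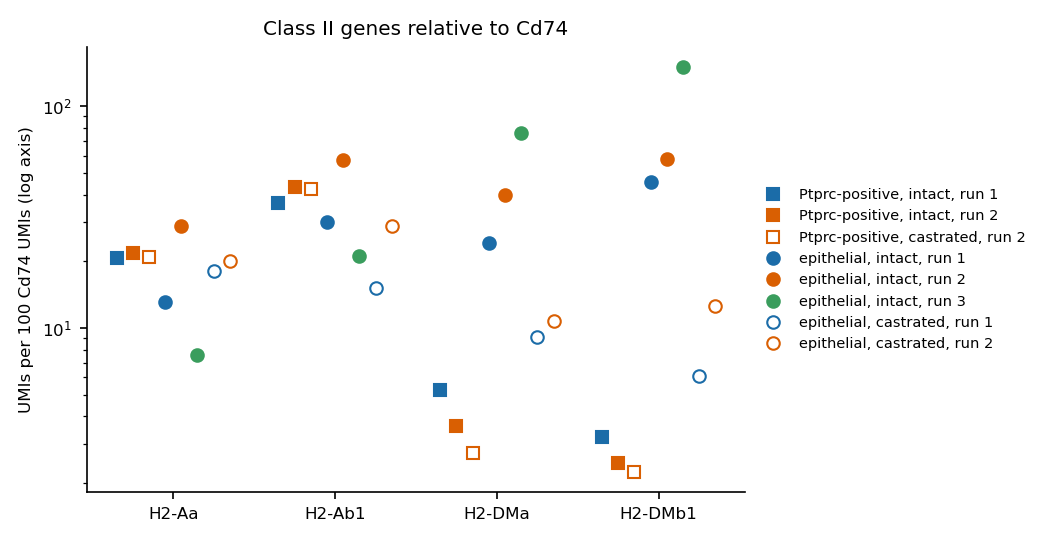
UMIs of H2-Aa, H2-Ab1, H2-DMa and H2-DMb1 per 100 Cd74 UMIs (log axis), with squares for Ptprc-positive cells, circles for epithelial cells, open symbols for castrated mice and colours for runs. Squares and circles intermix for H2-Aa and H2-Ab1, whereas for H2-DMb1 the intact circles (45.6 to 150) lie above the squares (2.244 to 3.229).

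Cd74 was also set against 7 leukocyte genes (Tyrobp, Fcer1g, Lyz2, Laptm5, Coro1a, Cd79a and Cd37), chosen after Cd52 had been seen in DLP epithelium. Per UMI of these genes, intact epithelium held 7.583, 3.228 and 2.129 Cd74 UMIs in the 3 runs, and Ptprc-positive cells held 1.018 and 3.467 in runs 1 and 2. In run 2 the ratios of the classes were close, and in run 1 that of epithelium was higher. Of the 182 Cd74 UMIs of intact epithelium in run 1, 1 cell held 68 and another 27. The epithelial rule itself lowers the count of the leukocyte genes. With Cd52 included, as first planned, the epithelial ratios were 0.06291, 0.05632 and 0.009904. The part of free RNA in the epithelial Cd74 UMIs was not tested.

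The design allowed 7 comparisons among intact epithelial populations, by RFP, lobe and keratin class, with 1 sum per run and population. Of 49 pairs of a member and a comparison, 7 passed the filter on low counts, so most members could not be tested. None of the 7 was called by edgeR's quasi-likelihood test or by DESeq2, and none had an unadjusted p under 0.05 in either. In VP keratin-low cells, RFP+ and RFP- differed by -0.70 ± 1.25 for Cd74 (log2 ± SE, edgeR adjusted p = 0.9567), -0.53 ± 0.49 for H2-DMa (edgeR adjusted p = 0.875) and -0.49 ± 0.34 for H2-DMb1 (edgeR adjusted p = 0.8206), where 0.442% of all genes were called. In AP RFP+ cells, keratin-high and keratin-low cells differed by 0.49 ± 1.06 for Cd74 (edgeR adjusted p = 0.8153), where 14.8% of all genes were called. The sign of this difference was that of run 1 (-1.20 without it). No member could be tested between AP RFP+ and RFP- keratin-low cells, between AP and DLP RFP- keratin-low cells, or between AP and VP RFP+ keratin-high cells, where 17.7%, 1.86% and 0.201% of genes were called. The AP RFP+ keratin-low sums enter several of these comparisons, which are not independent of each other. These standard errors leave room for differences of more than 2-fold in Cd74.

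Between lobes, the direction depended on scaling. RFP+ keratin-low cells of AP and VP differed by 0.04 ± 1.24 for Cd74 (edgeR adjusted p = 0.986) and -0.58 ± 0.29 for H2-DMb1 (edgeR adjusted p = 0.1926), where 21.4% of all genes were called. In RFP- keratin-low cells, AP and VP differed by -0.84 ± 0.79 for Cd74 (edgeR adjusted p = 0.5331), where 14.9% of all genes were called. These values use TMM factors. With library totals in their place the median of all genes moved to 1.11 in RFP+ and 1.10 in RFP- cells, from 0.0288 and 0.0313, and the signs of H2-DMb1 in RFP+ cells and of Cd74 in RFP- cells turned (0.50 ± 0.38 and 0.16 ± 0.69, edgeR adjusted p = 0.239 and 0.8378). Without the filter on low counts, and with TMM, H2-DMa and H2-DMb1 passed in RFP- cells, at -2.66 ± 0.76 and -2.40 ± 0.57 (edgeR adjusted p = 0.006562 and 0.0004929, with 11.5% of all genes called). H2-DMb1 there was at 4.845, 1.599 and 1.637 CPM in AP and at 8.698 and 4.861 CPM in VP (runs 2 and 3), so the highest AP value lay just below the lowest VP value.

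For H2-DMb1 the RFP difference was also compared between lobes. AP keratin-low cells were at 9.928, 5.467 and 6.378 CPM when RFP+, above the RFP- cells in each run. VP keratin-low cells were at 4.903 and 4.571 CPM when RFP+ in runs 2 and 3, below the RFP- cells, but this VP difference was not called. The test of the difference of these differences gave 1.84 ± 0.59 on the log2 scale (edgeR adjusted p = 0.1334), where 2.37% of all genes were called. With the run as a block it was 2.00 ± 0.54 (edgeR adjusted p = 0.04369, with 5.98% of all genes called). DESeq2 did not call it. In both tools its unadjusted p was under 0.05. These values rest on 1 to 43 UMIs a sum. When Krt15 was left out of the class boundary, an alternative added after the data were seen, H2-DMb1 could be tested in AP and passed, higher in RFP+ than in RFP- keratin-low cells by 1.49 ± 0.42 (edgeR adjusted p = 0.0334, 21.8% of all genes called) and lower in keratin-high than in keratin-low RFP+ cells (-1.27 ± 0.36, edgeR adjusted p = 0.0303, 25.8% of all genes called).

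Run 3 held the only intact DLP RFP+ cells, so there is no replicate for this lobe. Cd74 was at 13.59 CPM in RFP+ keratin-high and 4.394 CPM in RFP+ keratin-low cells, against 0.8176 and 2.447 CPM in the RFP- cells of the same run. Of the 44 UMIs of the keratin-high cells, 35 were in 1 cell, and the 13 UMIs of the keratin-low cells were all in 1 cell. H2-DMb1 of RFP+ cells was 1.295 and 1.841 times that of RFP- cells in the keratin-high and keratin-low classes.

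Counted without the set-apart cells, AP RFP+ epithelium held Cd74, H2-Aa and H2-Ab1 at higher CPM in castrated than in intact mice of run 2. VP RFP+ epithelium did not show this for H2-Aa, nor AP RFP+ epithelium for H2-DMb1. By lobe the comparison could be made in run 2 alone, where castration and the pool of mice cannot be told apart. The paper reports that RFP+ cells made up a much larger share of the epithelium after castration. The RFP+ gate therefore need not hold the same kinds of cells in castrated and intact mice. The ratios are of CPM on library totals, with exact 95% intervals that cover counting error only. AP RFP+ keratin-high cells held 113 Cd74 UMIs in castrated and 14 in intact mice, 77.94 against 7.226 CPM, a ratio of 10.79 (6.17 to 20.36). AP RFP+ keratin-low cells held 155 against 16 UMIs, 50.05 against 14.58 CPM, a ratio of 3.434 (2.048 to 6.157). AP RFP- keratin-low cells were at 36.45 against 7.997 CPM, 4.558 times (2.651 to 7.945), but 21 of their 35 castrated UMIs were in 1 cell, and the ratio was 14.76 when thinned and 2.0 without the cell with most Cd74 UMIs of each population. VP RFP+ keratin-low cells were at 13.97 against 7.639 CPM, 1.829 times (1.167 to 2.814), of which 1 cell gave 13 of 33 UMIs, and 1.159 times without the top cells, 0.9333 times when thinned and 17.13 times with the set-apart cells included. DLP RFP- keratin-low cells were at 3.971 against 8.555 CPM on 2 and 13 UMIs (0.4641, 0.05085 to 2.05). DLP RFP+ cells of castrated mice were at 81.21 CPM when keratin-high and 33.26 CPM when keratin-low, and had no intact counterpart in that run. The AP ratios changed with the choice of cells. With the set-apart cells included they were 3.811 in keratin-high and 0.3343 in keratin-low RFP+ cells. Under a limit of 7500 UMIs per cell they were 29.01 and 1.359.

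Without the set-apart cells, the chains were also higher in castrated AP RFP+ cells of this run. The 9 set-apart intact AP RFP+ cells held 120 H2-Aa UMIs and the 8 castrated ones 75. The epithelial AP RFP+ cells held 7 in intact and 59 in castrated mice, so the H2-Aa difference depends on leaving the set-apart cells out. The values below leave them out. H2-Aa had 31 against 5 UMIs in AP RFP+ keratin-high cells, a castrated to intact ratio of 8.286 (3.194 to 27.29), and 28 against 2 UMIs in keratin-low cells. H2-Ab1 had 29 against 5 UMIs in the former, 7.751 times (2.967 to 25.65), and 47 against 10 in the latter, 1.666 times (0.8307 to 3.697). In VP RFP+ cells H2-Aa was at 0 against 2.601 CPM when keratin-high, on 0 and 2 UMIs, and at 2.117 against 2.394 CPM when keratin-low. For H2-DMb1 the ratios were 0.5346 (0.1224 to 1.853) and 0.7089 (0.2462 to 2.302), with intervals that include 1. H2-DMa of the keratin-high cells went from 0 to 6 UMIs, 2.673-fold higher with the intact class at a floor of 3 counts, which is not a lower limit. Ciita had no UMI in castrated epithelium of run 2, and H2-Eb1 had 4.

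**Figure D3:**
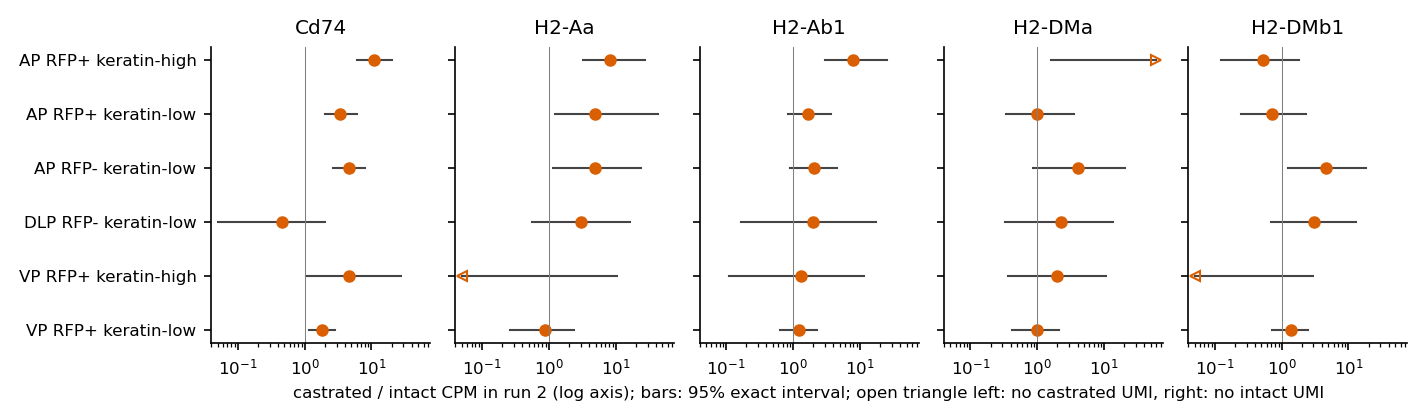
Castrated to intact ratio of CPM in run 2 (log axis) for Cd74, H2-Aa, H2-Ab1, H2-DMa and H2-DMb1 in 6 epithelial populations, with exact 95% intervals, where triangles mark populations without a UMI in one arm. AP RFP+ keratin-high cells lie to the right of 1 for Cd74 (10.79), H2-Aa (8.286) and H2-Ab1 (7.751), while the H2-DMb1 interval there includes 1.

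With all lobes and both classes of RFP+ cells in 1 sum, castrated and intact cells could be set side by side in 2 runs. The lobes in these sums differ. Intact sums of runs 1 and 2 hold no DLP cells and that of run 3 holds 393, the castrated sum of run 2 holds 190 DLP cells (at 41.32 CPM of Cd74), and the castrated lobes of run 1 cannot be split. Cd74 was at 124.2 against 15.51 CPM in run 1 (17 and 468 cells, 8.005 times, with 24 of the 33 castrated UMIs in 1 cell) and at 41.97 against 7.952 CPM in run 2 (721 and 467 cells, 5.278 times). H2-Aa was 9.824 and 3.417 times as high in the 2 runs, and H2-Ab1 4.366 and 2.31 times. For H2-DMb1 the ratios were 1.191 and 0.8438. Without DLP cells the run 2 ratios were 5.308 for Cd74 (42.21 against 7.952 CPM), 3.676 for H2-Aa and 2.544 for H2-Ab1. In edgeR's quasi-likelihood test over 2 castrated and 3 intact sums, added after the values of run 2 were seen, 5 members were tested and none was called, with 2 at an unadjusted p under 0.05, where 0.65% of all genes were called (0.414% as higher in castrated cells). Cd74 differed by 2.58 ± 0.53 (log2 ± SE, edgeR adjusted p = 0.1012), H2-Aa by 2.45 ± 0.88 (edgeR adjusted p = 0.2769) and H2-Ab1 by 1.60 ± 0.75 (edgeR adjusted p = 0.3912). Without DLP cells, also added after the data were seen, Cd74 differed by 2.802 ± 0.99 (edgeR adjusted p = 0.2933), no member was called, and 0.406% of all genes were. With the run as a block Cd74 and H2-Aa passed, at 2.20 ± 0.27 and 1.69 ± 0.54 (edgeR adjusted p = 5.118e-14 and 0.01848), where 11.8% of all genes were called (5.04% as higher in castrated cells). Run 3 has no castrated sum, so the block compares castrated with intact cells within runs 1 and 2 alone. These are 2 pairs, 1 of them with a castrated sum of 17 cells, too few to measure how pools of mice vary for a single gene. DESeq2 called Cd74 alone (2.67, DESeq2 adjusted p = 0.0003117, with 2.37% of all genes called). Without the filter on low counts edgeR called Cd74, and with library totals in place of TMM it called Cd74 and H2-Aa, where 1.88% and 2.26% of all genes were called. Without run 1 edgeR called Cd74 (2.40, edgeR adjusted p = 0.01641, with 6.99% of all genes called), and without run 2 or run 3 it did not (edgeR adjusted p = 0.721 and 0.1553). With run 1 or run 2 left out the castrated arm is 1 sum, assumed to vary like the intact sums. With the set-apart cells included its difference was 1.90 (edgeR adjusted p = 0.455), and its ratio in run 2 was 2.759.

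The castrated and intact classes also differed in their other markers. In AP RFP+ keratin-low cells of run 2, the secretory list was at 20280 CPM in castrated and 85050 CPM in intact mice, the proximal luminal list at 493.8 against 3001 CPM, and the luminal list at 9038 against 2310 CPM. In all RFP+ cells, library totals in place of TMM moved the median of all genes to 0.36 from -0.04. The part of these shifts in the class II ratios was not tested.

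Part of the castrated Cd74 UMIs lay in cells that held several. In run 2, 36 of 820 castrated epithelial cells held at least 4 Cd74 UMIs, against 2 of 917 intact cells. They included 9 of 157 AP RFP+ keratin-high cells, 14 of 180 AP RFP+ keratin-low cells and 9 DLP RFP+ cells. A UMI of H2-Aa or H2-Ab1 was present in 28 of the 36, and in 80 of the 658 castrated cells without Cd74. The 36 cells had medians of 29 Epcam UMIs and 15346 UMIs in all, against 17 and 9873.5 in the cells without Cd74. Of the 36, 13 held 1 of the 12 immune genes, the most the rule allows. This was a larger share than the 11.09% of the cells without Cd74. Thinned to 5000 UMIs, 11.83% of castrated and 2.857% of intact AP RFP+ keratin-high cells had a Cd74 UMI, of the 93 of 157 and 140 of 157 cells deep enough. In keratin-low cells the shares were 17.06% and 7.317%, of 170 of 180 and 41 of 53 cells.

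**Figure D4:**
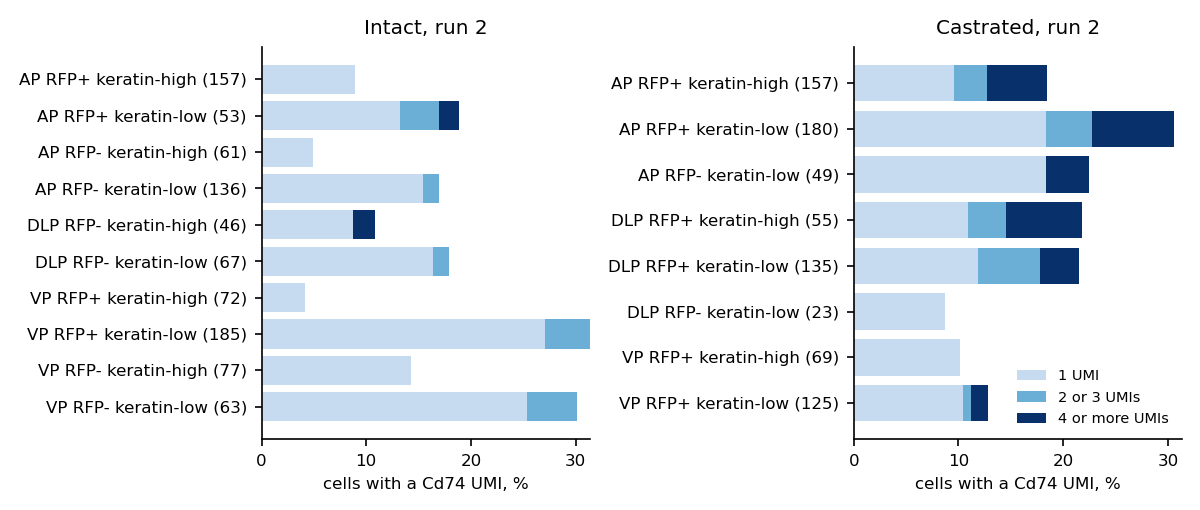
Share of cells of run 2 with 1, with 2 or 3, and with 4 or more Cd74 UMIs, in percent, by population, with the number of cells in parentheses, for intact and castrated mice. The darkest segment, 4 or more UMIs, appears in 6 of the 8 castrated populations and in 2 of the 10 intact populations.

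Within castrated RFP+ cells, 34 cells with at least 4 Cd74 UMIs were set beside 573 cells without one, as a description of 1 library. Epcam was at 1963 and 1792 CPM and the luminal keratin Krt8 at 3441 and 2156 CPM, in cells all admitted with an Epcam UMI. Krt5 and Psca were lower in the 34 cells, at 0.6001 times (0.4527 to 0.7816) and 0.2664 times (0.1448 to 0.4504). The sets thus differed in epithelial markers, and the part of this in the ratios below was not tested. H2-Aa was 15.73 times (9.199 to 27.2) and H2-Ab1 11.68 times (7.734 to 17.65) as high in the 34 cells. Of the interferon gamma pathway, Jak2 was 2.089 times (1.263 to 3.307) and Ifngr1 1.916 times (1.266 to 2.812) as high, while Jak1 was at 1.226 times (0.9516 to 1.56), Irf1 at 1.016 times (0.675 to 1.477), Socs1 at 0.99 times (0.31 to 2.443) and the interferon-induced GTPase Iigp1 at 1.416 times (0.587 to 2.956). Gbp2, another such GTPase, was 5.841 times as high (2.312 to 13.69), on 9 UMIs in 3 of the 34 cells. Of further GTPases, Gbp3 was 11.68 times (2.176 to 62.72, on 4 UMIs), Igtp 2.628 times (1.121 to 5.503) and Irgm1 1.839 times (1.033 to 3.083) as high, while Gbp7 was at 2.032 times (0.5107 to 5.946). Irf8 was 4.063 times (1.571 to 9.41) and Ifngr2 1.438 times (1.013 to 1.993) as high. Ctss, the cathepsin that cuts the invariant chain in antigen-presenting cells, was 6.445 times as high (3.27 to 12.27). Leukocyte genes moved with them in part. Lyz2 had 14 UMIs in the 34 cells and 11 in the 573, Tyrobp 6 and 2, and Laptm5 3 and 3 (11.68 times, 1.565 to 87.22). Cd52 had 1331 UMIs in 3 of the 34 cells and 110 in the 573. Itgam and Cd79a had 0 UMIs in the 34 cells and 8 each in the 573. Csf1r, Cd3d, Cd3g and Cd37 had no UMI in either set. Per UMI of the 7 leukocyte genes, castrated epithelium of run 2 held 5.688 Cd74 UMIs and castrated Ptprc-positive cells 4.178. The summed level of those genes in AP RFP+ keratin-high cells was 17.93 CPM in castrated and 3.097 CPM in intact mice. The part of leukocyte RNA or of joined cells in the castrated difference was not tested.

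Of 33 other genes of the class II pathway, 31 were tested between Ptprc-positive and epithelial cells, of which 23 were higher and 1 lower in Ptprc-positive cells (median log2 difference 2.61, against -0.30 over all genes). The genes with the largest fitted differences were H2-Oa and H2-Ob, subunits of the H2-DM inhibitor H2-O, and the costimulator Cd80. H2-Oa had 12 and 151 UMIs in Ptprc-positive cells of runs 1 and 2 and 1 in epithelium of each run. H2-Ob had 8 and 59 against 0, 1 and 0, and Cd80 had 16 and 90 against 1 in each run. Ctsl, cathepsin L, was the lower gene (-1.88 ± 0.51, edgeR adjusted p = 0.02763).

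In intact epithelium some of these genes differed between populations. Between AP RFP+ and RFP- keratin-low cells, 2 of 12 tested pathway genes were higher and none lower (median 0.22), where 17.7% of all genes were called in either direction. Ctsl was at 136.3, 166.7 and 140.3 CPM in RFP+ and 49.15, 53.74 and 68.74 CPM in RFP- cells, a difference of 1.38 ± 0.27 (edgeR adjusted p = 0.00598). Jak2, a kinase of the interferon gamma receptor, was at 33.75, 21.87 and 28.7 CPM against 13.15, 8.957 and 13.09 CPM, a difference of 1.28 ± 0.24 (edgeR adjusted p = 0.005047). Neither gene overlapped between RFP+ and RFP- cells, but both were named because they were called in this comparison, so this adds nothing to the test. With the run as a block Ifngr1, a chain of that receptor, was also called, lower in RFP+ cells (-0.56 ± 0.16, edgeR adjusted p = 0.01487, with 27.8% of all genes called).

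Between keratin-high and keratin-low AP RFP+ cells, 5 of 15 were higher and 1 lower (median 0.24), and with library totals 5 were higher and 0 lower. In this comparison 14.8% of all genes were called. Ctsl again led, at 532.7, 839.7 and 1064 CPM in keratin-high cells, 2.34 ± 0.38 above keratin-low cells (edgeR adjusted p = 0.003924). Irf1, a transcription factor that binds the interferon-responsive Ciita promoter, was at 58.02, 69.68 and 36.13 CPM against 22.5, 13.67 and 11.16 CPM (1.66 ± 0.29, edgeR adjusted p = 0.005464). Socs1, an inhibitor of JAK signalling, was at 9.331, 15.48 and 12.61 CPM against 0.6618, 0.9111 and 5.581 CPM (2.27 ± 0.65, edgeR adjusted p = 0.04627). In each run the keratin-high value of these genes was above every keratin-low value. They were named because they were called here, so this order adds nothing to the test.

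Between AP and VP, 2 of 15 were higher and 1 lower in RFP+ keratin-low cells, and 1 of 12 higher and 1 lower in RFP- keratin-low cells, where 21.4% and 14.9% of all genes were called. With library totals these counts became 11 and 0, with 76% of all genes called, and 6 and 1, with 68.3% called. Ifngr1 was higher in AP under both scalings. It was at 70.16, 35.53 and 54.21 CPM in AP RFP+ cells against 8.169, 6.841 and 6.143 CPM in VP (1.87 ± 0.20 with TMM and 2.96 with library totals, edgeR adjusted p with TMM = 0.0004044). In RFP- cells it was at 83.76, 68.78 and 72.02 CPM against 8.35 and 8.102 CPM (2.13 ± 0.25, edgeR adjusted p = 0.0004346). Jak2 was also higher in AP RFP+ cells under both (1.60 ± 0.21 with TMM, edgeR adjusted p = 0.001217). Ctsl was lower in AP RFP- cells under both (-2.25 ± 0.23 with TMM and -1.17 ± 0.27 with library totals, edgeR adjusted p = 0.0002405 and 0.001307), and in RFP+ cells with TMM alone (-1.21 ± 0.24, edgeR adjusted p = 0.008803). Against DLP RFP- keratin-low cells, Ctsl was the 1 gene of 13 called, lower in AP (-1.41 ± 0.26, edgeR adjusted p = 0.02895), and with the run as a block Irf1 was called as well (-1.45 ± 0.27, edgeR adjusted p = 0.01678, with 6.3% of all genes called). In VP by RFP (16 tested), between lobes in RFP+ keratin-high cells (13 tested) and for the difference of RFP differences (15 tested), edgeR called no pathway gene, with 3, 0 and 2 at an unadjusted p under 0.05, and DESeq2 called none.

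After castration, neither edgeR nor DESeq2 called any of 24 tested pathway genes over runs, with 1 and 0 at an unadjusted p under 0.05. With the run as a block, which again rests on the 2 pairs of runs 1 and 2, edgeR called Iigp1 (1.70, edgeR adjusted p = 0.005898). In AP RFP+ cells of run 2, given as castrated to intact ratios with no test, Iigp1 had 38 against 8 UMIs in keratin-high cells, 6.348 times (2.917 to 15.75). In keratin-low cells Iigp1 had 26 against 0 UMIs. That is 3.072-fold with the intact class at a floor of 3 counts, with an exact lower limit of 2.325. Irgm1, of the same family, was 5.568 times (2.924 to 11.49) and 3.332 times (1.331 to 10.73) as high in the 2 classes. Irf1 was 2.221 times (1.28 to 4.125) as high in keratin-low cells and 0.9602 times in keratin-high cells. Igtp, a further GTPase, was at 1.225 times (0.4898 to 3.033) in keratin-high and 2.056 times (0.7868 to 6.802) in keratin-low cells. Of the receptor's signalling chain, Ifngr1 and Jak2 were lower in castrated keratin-high cells, at 0.6228 times (0.4326 to 0.8854) and 0.5346 times (0.3014 to 0.9143), and Jak1 and Ifngr2 were higher in castrated keratin-low cells, at 2.27 times (1.665 to 3.156) and 1.931 times (1.294 to 2.977).

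**Figure D5:**
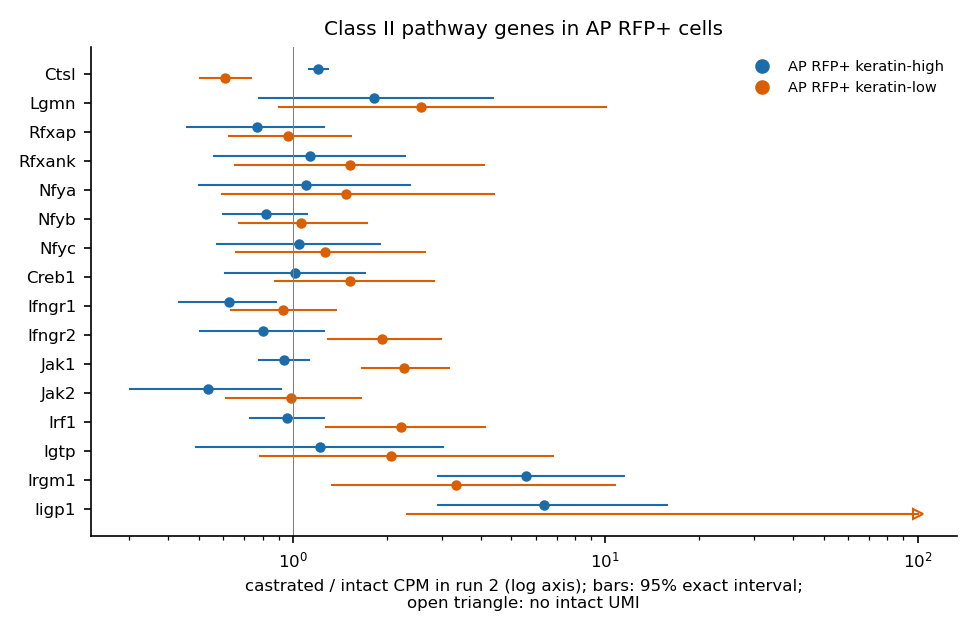
Castrated to intact ratio of CPM in run 2 (log axis) of class II pathway genes in AP RFP+ cells, keratin-high in blue and keratin-low in orange, with exact 95% intervals and a triangle where there was no intact UMI. Irgm1 and Iigp1 lie above 1 in both classes, Irf1 (2.221) in keratin-low cells, Ifngr1 and Jak2 lie below 1 in keratin-high cells, and the RFX and NF-Y subunits shown have intervals that include 1.

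Over 39 epithelial sums by run, treatment, lobe, RFP and class, Cd74 moved with H2-Ab1 (Pearson r = 0.851 on log2 CPM) and H2-Aa (0.773), and H2-Aa with H2-Ab1 (0.787). H2-DMb1 had r = -0.05 with Cd74 and -0.05 with H2-DMa. Among the 4858 other genes whose mean reached 20 CPM, those most like the mean of Cd74 and the 3 chains were Amd2 (0.765), Arl14 (0.705), Ehd4 (0.695), Gm11361 (0.651) and Lrrfip1 (0.65). In the 18 sums of run 2 alone, Arl14, Ehd4 and Lrrfip1 were at 0.647, 0.6 and 0.602, while Amd2 and Gm11361 were at 0.219 and 0.374. The sums share runs, pools of mice and depth, so these values describe the data and carry no p.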

How the data were processed

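Gene expression was measured by droplet single-cell RNA-seq in 3 adult runs with lipid-anchored sample barcodes. The deposited values are UMI counts per gene and cell, made by the authors with Cell Ranger 3.1.0 on mm10, and the submitters' processing notes also name Seurat 3.1.5. The files held 2612, 6034 and 3028 cells and 35051876, 86381807 and 40087244 UMIs. Pairs of runs shared 6, 0 and 5 cell barcodes. Cells were kept with over 750 genes, under 7500 genes and under 10% mitochondrial UMIs, and with 1 barcode past thresholds built as in the study, which removes cells with several barcodes as doublets. No doublet caller was run. The study's limit is worded as 7500 UMIs, which is below the median of every run (13055, 10618.5 and 9750 UMIs among kept cells), and was tried as an alternative. This left 824, 2194 and 1673 cells.

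UMIs were summed per run and population (at least 10 cells) and tested with edgeR 4.0.16 in R 4.3.3 (glmQLFit and glmQLFTest, TMM, filterByExpr, Benjamini-Hochberg over all genes tested, 0.05), after a test on simulated data. The study compared cells with MAST, which treats cells as replicates and was not used. Sums of one run come from the same pool of mice or the same library, so the run pairs them. The deviations of same-run sums from their group means correlated at 0.0278 to 0.526 (0.338 to 0.449 for AP RFP+ against RFP-). Alternatives were DESeq2 1.42.0, no low-count filter, the run as a block, each run left out, other choices of cells and class boundary, thinning to 5000 UMIs (shallower cells left out), and, added after seeing the data, library totals without TMM and DLP cells left out. CPM are UMIs per 1000000 UMIs of the sum. Intervals are exact and 95%, and like the floor of 3 counts cover counting error only. Named were all members, in each tested comparison the 3 called pathway genes (of 33; 1 further gene of the list is not reported here) with the largest change, and the 5 genes most like the members. Genes named from the castrated to intact ratios and from cells rich in Cd74 were chosen from the same list, and from the marker lists, after their values were seen. Members and lists were chosen with earlier results of these data known. The explant library of the series was not used here.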

Additional observations from a re-analysis of the deposited data

Results flagged for a closer look

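For H2-DMb1 in keratin-low cells, RFP+ was above RFP- in each AP run and below it in both VP runs measured. The RFP+ minus RFP- difference was 5.083, 3.868 and 4.741 CPM in AP in runs 1, 2 and 3, and -3.795 and -0.29 CPM in VP in runs 2 and 3. The difference between lobes had an edgeR adjusted p of 0.1334, and of 0.04369 with the run as a block, and the VP difference alone was not called and turned to 0.0111 without run 2.

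Cd74 was also found in cells that entered no comparison. Cells with neither an Epcam nor a Ptprc UMI were at 1589 CPM in run 1 and 4420 CPM in run 2 in intact mice, and at 2202 CPM in castrated mice of run 2. Most cells of this class held no Cd74 UMI, 65 of 76, 42 of 55 and 36 of 41 in the same order. A single cell gave 427 of 734, 318 of 1523 and 364 of 397 Cd74 UMIs. Cells with both an Epcam and a Ptprc UMI were at 13840 CPM in intact and 14930 CPM in castrated mice of run 2. Which cells these are was not tested.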

How the results depend on the processing

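All 7 members were called between Ptprc-positive and epithelial cells in each alternative fitted, and in each with 1 run left out (7 to 7). Leaving out run 1 or 2 leaves 1 Ptprc-positive sum there and 1 castrated sum in the castrated comparison, which is assumed to vary like the other arm. Of the counts and values that answer a comparison, 171 alternative values stayed within their limits and 28 moved. Members called went from 0 to 1 without Krt15 in AP by RFP and in AP RFP+ by keratin class, to 2 without the low-count filter in RFP- AP against VP, and to 1 with the replicate block in the lobe by RFP interaction. For castrated against intact RFP+ cells they became 1 with DESeq2, 1 without the low-count filter, 2 with library totals, 2 with the replicate block, and 0 to 1 with 1 run left out. In all other comparisons leaving out a run gave 0 to 0 members. The replicate block, in which same-run sums are paired, changed no other call of a member.

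Differences that turned, all uncalled, included 4 that did so when a run was left out, VP H2-DMb1 by RFP (-0.632 without replicate 1 to 0.0111 without replicate 2), AP RFP+ Cd74 by keratin class (-1.204 to 1.751), Cd74 in RFP+ AP against VP (-0.0618 to 0.0974) and the Cd74 interaction (-2.751 to 1.218). With the set-apart cells AP RFP+ Cd74 by keratin class was -3.217 and H2-DMb1 in RFP+ AP against VP 0.0886. In the same comparison Cd74 was -0.0795 without Krt15, and H2-DMb1 was 0.495 with library totals. Cd74 in RFP- AP against VP was 0.159 with library totals, and H2-DMa in castrated cells -0.0141 with the replicate block. The cause was not tested. Castrated to intact Cd74 ratios moved in AP RFP+ keratin-high cells to 3.811 with the set-apart cells and 29.01 under the limit of 7500 UMIs, and in AP RFP+ keratin-low cells to 0.3343 and 1.359. In AP RFP- keratin-low cells they moved to 14.76 when thinned and 2.0 without the top cell, and in VP RFP+ keratin-low cells to 17.13 with the set-apart cells, 0.9333 when thinned and 1.159 without the top cell. Unthinned shares with a Cd74 UMI were 7.153%, 17.23% and 19.76% (castrated) in epithelium and 97.06%, 83.43% and 88.24% in Ptprc-positive cells. The ratio to leukocyte genes without Cd52 was 7.583, 3.228, 2.129 and 5.688 (castrated).

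Under the limit of 7500 UMIs the VP RFP, RFP+ and RFP- AP against VP and interaction tests were not run, for want of sums. DLP RFP- keratin-low cells gave no castrated ratio when thinned, and DLP keratin-high cells of run 3 gave no RFP ratio when thinned, under that limit, or with none of the immune genes. Depth limits what can be said of the members. In intact epithelium 7 of 49 pairs of member and comparison passed the filter on low counts, and the others are not shown to be alike.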
